A study of Mus musculus with 4 samples.

Results

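The transcription factors of T cell memory and effector differentiation were followed as a set of 10 genes, Tcf7, Lef1, Id2, Id3, Tbx21, Eomes, Prdm1, Nr4a1, Nr4a2 and Bach2, chosen by name out of the 32285 genes in the count matrices. Their transcripts were measured by droplet single-cell RNA sequencing in MC38 tumors, a transplantable mouse colon carcinoma that was grown in hosts of the C57BL/6 strain. RAC1 in the injected cells was either wild-type (WT) or had the A159V substitution of this small GTPase, knocked into the endogenous Rac1 gene by CRISPR-Cas9, and the mice received control IgG or an antibody that blocks the PD-1 checkpoint (anti-PD1). There was 1 library for each of the 4 groups, which are named by tumor genotype and antibody (WT IgG, WT anti-PD1 and likewise for A159V). The engineered cells were homozygous for A159V and, as the study describes them, a single edited clone stands for the genotype unless it says otherwise, while the host mice and therefore all lymphocytes were unedited in every group. Bead-separated CD45+ and CD45- cells had been remixed before loading, so shares of immune cells in these libraries were set by hand. Counts per gene do not resolve the A159V codon, and the genotype labels were not checked against sequence.

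These factors act in opposing pairs. TCF1 and LEF1, the high mobility group proteins encoded by Tcf7 and Lef1, together with ID3 and BACH2, are known for keeping T cells in naive, memory and stem-like states. T-bet (Tbx21), ID2 and BLIMP1 (Prdm1) drive effector differentiation, EOMES serves both effector and memory programs and NK cell maturation, and the orphan nuclear receptors encoded by Nr4a1 and Nr4a2 are induced by antigen receptor signaling, with NR4A proteins also tied to CD8 T cell exhaustion. Regulatory T cells use BLIMP1 and NR4A factors in their own program, and NK cells depend on ID2, T-bet and EOMES.

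After cells with at most 500 genes and predicted doublets had been removed, 6867, 6466, 7603 and 8248 cells remained. Here and below, values of the 4 libraries follow the order WT IgG, WT anti-PD1, A159V IgG, A159V anti-PD1. Clusters with T and NK cell markers held 1210, 1801, 1251 and 1516 of these, at median depths of 2913, 3145, 2073 and 2375 unique molecular identifiers (UMIs, counted mRNA molecules) per cell. Within them, 5 classes were drawn from the UMIs of a few defining genes, none of them a member of the set. The CD8 class held 357, 527, 200 and 384 cells and conventional CD4 69, 116, 52 and 85. There were 158, 215, 88 and 157 regulatory T cells, 45, 48, 36 and 55 gamma-delta T cells and 161, 356, 317 and 265 NK cells. Between 29.9% and 44.6% of T and NK cells per library met no definition and were left out. The summed UMIs of a class in a library, the depth behind each level, ran from 91139 for conventional CD4 cells of A159V IgG to 2022987 for CD8 cells of WT anti-PD1. Pairs of libraries shared 13 to 22 cell barcodes.

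Genes outside the class definitions were read as a check. Prf1, Klra8 and Klre1 had already served as markers to name NK clusters before the classes were drawn. Ctla4 and Tnfrsf4 were highest in regulatory T cells in 4 of 4 libraries, as were Cd40lg and Cd28 in conventional CD4 cells and Prf1, Gzma and Klra8 in NK cells. The CD8 check genes Gzmk, Nkg7 and Ccl5 were each highest in CD8 cells in 3 of 4 libraries. In WT IgG the conventional CD4 cells held 2090 CPM (the UMIs of a gene per 1e6 UMIs) of Ccl5 and 52.5 of Gzmk, against 1463 and 44.6 in CD8 cells. Icos, listed as a conventional CD4 gene, was higher in regulatory T cells in 4 of 4 libraries. Tcrg-C1, Tcrg-C2 and Tcrg-C4, constant segments of the gamma chain, were highest in the gamma-delta class in 4 of 4 libraries, but the same cells also held the NK receptor gene Klre1 at 157 to 477 CPM and the granzyme gene Gzma at 82 to 984 CPM. Il17a, Il23r and Trdv4 were at 0 UMIs in gamma-delta cells of A159V IgG. The gamma-delta class therefore stands here for T cells with delta-chain transcripts, part of them with NK genes, and the part of those cells in its values was not tested. The WT anti-PD1 library stood apart. It held 24 cells in tumor clusters, against 2027 to 2797 in the other 3, and 1607 in stromal clusters, against 135 to 179. When T and NK cells were clustered again, 438 of its 527 CD8 cells fell into 1 cluster that drew 95.58% of its cells from this library, and 312 of its 356 NK cells into another drawn 89.85% from it. The same held for 165 of its 215 regulatory T cells (90.27%) and 38 of its 48 gamma-delta cells (90.85%), and its leading conventional CD4 cluster held 56 of 116 cells (55.28%). Comparisons of WT anti-PD1 with WT IgG in the first 4 of these classes therefore set cells mostly of different clusters side by side. Its stromal marker genes summed to 531.6 to 654.1 CPM in the 5 classes, against 0 to 74 CPM in the other 3 libraries. The summed level of 10 macrophage markers was 1148 to 1800 CPM in CD8 cells, 431.8 to 603.2 in conventional CD4, 488.2 to 839.0 in regulatory T, 838.8 to 1617 in gamma-delta and 564.1 to 966.7 in NK cells, and fell to at most 360 CPM in any class once Ly6c2 and Ccr2 were left out.

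Levels of each gene are given below as CPM of the summed UMIs of a class. Reads come from transcript ends, so CPM of different genes can be set side by side only roughly, and comparisons are made within a gene. Coordinates are those of the mouse build GRCm38.

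**Figure D1:**
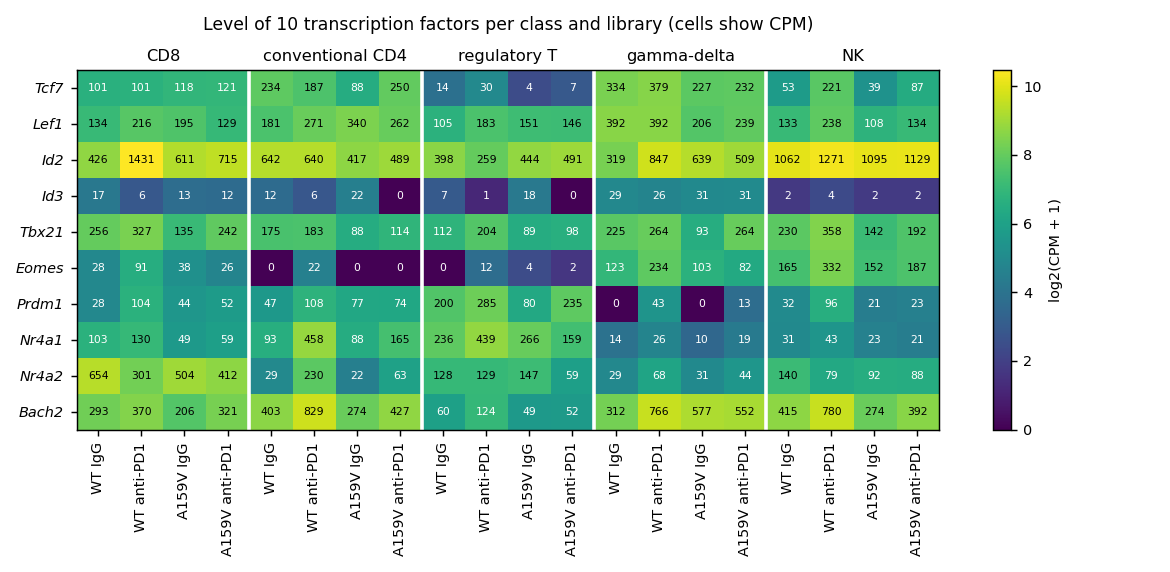
Level of each of the 10 factors (rows) in the 5 lymphocyte classes of the 4 libraries (columns). Color is log2(CPM + 1) and the printed number is CPM of the UMIs summed over the cells of the class. Regulatory T cells have the lowest mean for Tcf7 and Bach2 and the highest for Prdm1 and Nr4a1, Nr4a2 is highest in CD8 cells in every library, and Eomes is near 0 in both CD4 classes.

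Among the memory factors, Tcf7 (chr11:52252371-52283014, minus strand) had UMIs in every class but few in regulatory T cells. Gamma-delta cells held 334, 379, 227 and 232 CPM of Tcf7, and conventional CD4 cells 234, 187, 87.8 and 250. In CD8 cells it was 100.9, 101.3, 117.8 and 120.6 CPM, the narrowest spread (SD) of the 5 classes. NK cells ranged more widely, at 52.9, 221, 39.2 and 87.4 CPM, with WT anti-PD1 well above the other libraries. Regulatory T cells had 13.8, 29.9, 4.44 and 6.52 CPM of Tcf7, from only 8, 24, 1 and 3 UMIs, and all 4 values lay below every value of the other classes. The means fell from gamma-delta (293 ± 75.5 CPM, SD, n = 4 libraries) through conventional CD4 (190 ± 73.0), CD8 (110.2 ± 10.5) and NK (100.2 ± 83.2) to regulatory T (13.7 ± 11.5), and only the last step separated neighbors without overlap.

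Lef1 (chr3:131110471-131224356, plus strand), the partner of Tcf7 in the same gene family, had a flatter profile. Its mean was 307 ± 98.7 CPM in gamma-delta cells, 264 ± 65.2 in conventional CD4, 168 ± 43.7 in CD8, 153 ± 58.0 in NK and 146 ± 31.9 in regulatory T cells (SD, n = 4), and every pair of neighbors in this order overlapped. Regulatory T cells thus kept Lef1 at 105, 183, 151 and 146 CPM while their Tcf7 was below 30 CPM in each library.

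Bach2 (chr4:32238804-32586108, plus strand), a repressor that shields T cells from effector genes, was plentiful outside the regulatory T cells. Gamma-delta cells held 312, 766, 577 and 552 CPM, conventional CD4 cells 403, 829, 274 and 427, NK cells 415, 780, 274 and 392, and CD8 cells 293, 370, 206 and 321. Regulatory T cells were apart from all of these, at 60.4, 124, 48.9 and 52.2 CPM. In each of CD8, conventional CD4, regulatory T and NK cells the WT anti-PD1 library was the highest and the A159V IgG library the lowest.

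Id3 (chr4:136143497-136145755, plus strand), which sequesters E proteins, rested on few molecules. CD8 cells gave 31, 13, 8 and 17 UMIs, or 17.3, 6.43, 12.6 and 11.6 CPM. Gamma-delta cells were higher, at 29.0, 25.6, 30.9 and 31.4 CPM, but from 4, 6, 3 and 5 UMIs. NK cells stayed between 2.35 and 4.12 CPM. Conventional CD4 and regulatory T cells had at most 4 UMIs in any library, and each had 0 in A159V anti-PD1, where a count of 0 allows up to 17.1 and 6.52 CPM.

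Id2 (chr12:25093799-25097140, minus strand), the counterpart of Id3 in effector and innate lymphocytes, was highest in NK cells at 1062, 1271, 1095 and 1129 CPM. CD8 cells varied most between libraries, with 426, 1431, 611 and 715 CPM of Id2, and only the CD8 cells of WT anti-PD1 exceeded the NK cells. Conventional CD4 cells held 642, 640, 417 and 489 CPM, gamma-delta cells 319, 847, 639 and 509, and regulatory T cells 398, 259, 444 and 491. Means ran from NK (1139 ± 92.1) to regulatory T (398 ± 100.3), and all neighbors overlapped.

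Tbx21 (chr11:97098071-97115331, minus strand) encodes T-bet, the factor of type 1 responses. It differed least between classes of the effector factors, with mean levels of 240 ± 79.3 CPM in CD8, 230 ± 92.5 in NK, 211 ± 81.2 in gamma-delta, 140 ± 46.6 in conventional CD4 and 126 ± 53.1 in regulatory T cells. CD8 cells held 256, 327, 135 and 242 CPM. A159V IgG was the lowest library in each of the 5 classes, and in gamma-delta cells it had 92.7 CPM against 225 to 264 in the others.

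Eomes (chr9:118478212-118486132, plus strand), the T-box relative of Tbx21, split the classes far more. NK cells held 165, 333, 153 and 187 CPM and gamma-delta cells 123, 234, 103 and 81.6. CD8 cells had 28.4, 91.5, 37.7 and 25.9 CPM, below both of these in each library. Conventional CD4 cells had 0 UMIs of Eomes in 3 libraries, which allows up to 17.5, 32.9 and 17.1 CPM in WT IgG, A159V IgG and A159V anti-PD1, and 22.4 CPM in WT anti-PD1. Regulatory T cells stayed at or below 12.4 CPM.

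Prdm1 (chr10:44437177-44528501, minus strand) was a regulatory T cell gene in these tumors, at 200, 285, 80.0 and 235 CPM. Conventional CD4 cells had 46.7, 108, 76.8 and 74.0 CPM, CD8 cells 28.4, 104, 44.0 and 52.5, and NK cells 31.8, 95.5, 20.8 and 22.7. Gamma-delta cells had 0 UMIs in WT IgG and in A159V IgG, which allows up to 21.8 and 30.9 CPM, and 42.6 and 12.6 CPM in the anti-PD1 libraries of WT and A159V tumors. WT anti-PD1 was the highest library in every class, and the regulatory T cells of A159V IgG overlapped the conventional CD4 range.

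The NR4A pair diverged by class. Nr4a1 (chr15:101254269-101274795, plus strand) had its highest mean in regulatory T cells, at 236, 439, 267 and 158.7 CPM, and its next in conventional CD4 cells, at 93.4, 458, 87.8 and 165. Regulatory T cells were above conventional CD4 cells in both IgG libraries, where the Poisson intervals for counting error did not overlap. In both anti-PD1 libraries these intervals overlapped, so the classes could not be ordered there. They were 394.6 to 487.5 against 400.4 to 522.3 CPM in WT anti-PD1, and 124.4 to 199.5 against 110.5 to 237.0 in A159V anti-PD1. CD8 cells held 103, 130, 48.7 and 59.3 CPM, NK cells 21.0 to 43.3 and gamma-delta cells 10.3 to 25.6. Nr4a2 (chr2:57106830-57124003, minus strand) was instead a CD8 gene, at 654, 301, 504 and 412 CPM. All 4 of those values lay above every other class, where regulatory T cells held 128, 129, 147 and 58.7 CPM, NK cells 140, 79.0, 92.5 and 88.2, conventional CD4 cells 29.2, 230, 21.9 and 62.6, and gamma-delta cells 29.0 to 68.1.

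Both NR4A genes are classical immediate early genes, and their RefSeq promoters (250 bases before to 50 after the start, GRCm38.p6) are shown because they are the members whose start regions carry the most copies of a shared signal-response sequence while their class patterns differ. Capitals mark TGACG or its reverse complement CGTCA, the core of a cAMP response element, searched on both strands, and each sequence is written in the direction of transcription from chr15:101266596-101266895 (plus strand) and chr2:57123954-57124253 (minus strand).
Nr4a1: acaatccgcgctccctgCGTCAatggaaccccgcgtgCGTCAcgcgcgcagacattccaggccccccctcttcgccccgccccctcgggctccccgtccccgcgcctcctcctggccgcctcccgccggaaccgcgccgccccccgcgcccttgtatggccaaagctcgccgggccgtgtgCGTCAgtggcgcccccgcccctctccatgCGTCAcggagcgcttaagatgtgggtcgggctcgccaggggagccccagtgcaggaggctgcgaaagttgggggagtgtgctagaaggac
Nr4a2: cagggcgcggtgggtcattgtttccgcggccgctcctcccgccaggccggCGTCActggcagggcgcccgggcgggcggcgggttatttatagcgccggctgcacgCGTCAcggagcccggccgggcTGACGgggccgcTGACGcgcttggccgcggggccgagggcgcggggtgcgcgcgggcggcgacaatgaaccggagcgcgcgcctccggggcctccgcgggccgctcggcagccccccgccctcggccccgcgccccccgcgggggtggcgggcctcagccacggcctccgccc
Each window holds 4 copies. They begin 233, 213, 69 and 40 bases before the start in Nr4a1, and 200, 144, 123 and 111 bases before it in Nr4a2. Of 32851 promoter windows of this length, 20.81% hold at least 1 copy and 76 (0.231%) hold 4 or more. Prdm1 and Id3 hold 1 copy each and the other 6 members none. The marked motif was the only one of several searched that either NR4A window held. The full element TGACGTCA was among those absent. The marked copies are matches of letters in a window, not sites shown to be used.

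The classes were then compared within libraries, by edgeR's quasi-likelihood test on summed UMIs with the library as a block. The 4 libraries are 4 conditions rather than repeats, so the error of a class difference includes how the conditions move it. Of 8025 genes tested all 10 members were included, and an adjusted p under 0.05 was the threshold. Differences are log2 fold changes ± SE.

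In conventional CD4 over CD8 cells, Nr4a1 and Bach2 were higher and Eomes, Nr4a2 and Tbx21 lower, so that 2 of 10 members passed upward and 3 of 10 downward, where 6.55% and 5.22% of all genes did. These classes were not fully apart by clustering. When T and NK cells were clustered again, clusters named CD8 held 71 cells of the conventional CD4 class, and those named conventional CD4 held 214. The part of this overlap in the differences was not tested. Nr4a2 fell by 2.05 ± 0.37 on the log2 scale (adjusted p = 0.000452), lower in 4 of 4 libraries, while Nr4a1 went the other way at 1.23 ± 0.25 (adjusted p = 0.00114), higher in 3 of 4 libraries. Without WT anti-PD1 the Nr4a1 difference was 0.68 (adjusted p = 0.128), so that call rested on the library with 458 CPM. Eomes was lower by -2.32 ± 0.46 (adjusted p = 0.000968) and Tbx21 by -0.80 ± 0.18 (adjusted p = 0.00349), each in 4 of 4 libraries. Bach2 was higher by 0.63 ± 0.18 (adjusted p = 0.0249), also in 4 of 4, and lost the call without WT IgG (0.67, adjusted p = 0.0845), WT anti-PD1 (0.39, adjusted p = 0.181) or A159V anti-PD1 (0.70, adjusted p = 0.0854). Lef1 at 0.59 (adjusted p = 0.0571) and Tcf7 at 0.73 (adjusted p = 0.161) did not pass with all libraries, and passed without WT anti-PD1 (0.71, adjusted p = 0.0348, and 0.81, adjusted p = 0.0262).

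Partner genes gave the setting of that contrast. Of 13 immediate early genes, 6 were higher in conventional CD4 cells and none lower, led by the phosphatase gene Dusp1 (1.67 ± 0.29, adjusted p = 0.000305) and the AP1 gene Junb (1.43 ± 0.24, adjusted p = 0.000142), with a list median of 1.11 against -0.02 over all genes. Of 16 effector and exhaustion genes tested, 8 were lower, among them the cytotoxic genes Prf1 (-5.19 ± 0.58, adjusted p = 6.33e-07, from 0 to 3 UMIs per library in conventional CD4 cells) and Gzma (-3.22 ± 0.60, adjusted p = 0.000602), and 1, Batf, was higher. Among 13 memory genes 5 were higher and 4 lower, with Slamf6 at 1.89 ± 0.28 (adjusted p = 4.08e-05) and the chemokine gene Xcl1 at -2.55 ± 0.57 (adjusted p = 0.00363). Among 15 partner factors 5 were higher and 2 lower, led by Maf (3.59 ± 0.45, adjusted p = 3.45e-06) and, downward, the CD8 lineage factor Runx3 (-1.38 ± 0.17, adjusted p = 2.6e-06).

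**Figure D2:**
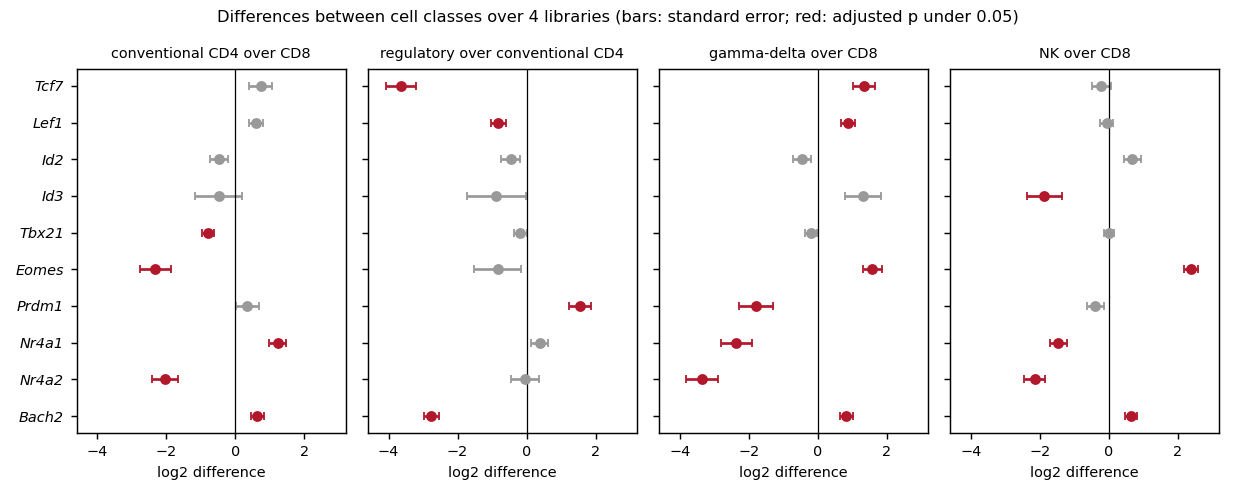
Log2 fold change ± SE of each factor in the 4 class contrasts, from 1 edgeR fit over 20 class and library profiles, with red points at an adjusted p under 0.05. Nr4a2 is below 0 against CD8 cells in conventional CD4, gamma-delta and NK cells, Eomes is above 0 in gamma-delta and NK cells and below 0 in conventional CD4 cells, and Tcf7 and Bach2 lie far below 0 in regulatory over conventional CD4 cells.

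Regulatory over conventional CD4 cells showed less of 3 memory factors. Tcf7 fell by 3.64 ± 0.43 on the log2 scale (adjusted p = 3.16e-06) and Bach2 by 2.77 ± 0.22 (adjusted p = 1.72e-08), with Lef1 lower by -0.82 ± 0.21 (adjusted p = 0.0137). Prdm1 was the only member to rise, by 1.55 ± 0.32 (adjusted p = 0.00175). All of these held in 4 of 4 libraries, and the counts of 1 of 10 higher and 3 of 10 lower stood beside 4.34% and 4.47% of all genes. On clustering again, clusters named conventional CD4 held 71 cells of the regulatory T class and 214 of the conventional CD4 class. Clusters named regulatory T held 511 and 30. The part of this overlap in the differences was not tested. The Tcf7, Bach2 and Prdm1 calls were kept on leaving out each library in turn. The Lef1 call was lost without WT IgG (-0.81, adjusted p = 0.0519) and without A159V anti-PD1 (-0.81, adjusted p = 0.0899). Nr4a1, high in both classes, was at 0.38 (adjusted p = 0.428), and Nr4a2 was at -0.05 (adjusted p = 0.986) with all libraries and 1.35 (adjusted p = 0.0207) without WT anti-PD1, the library in which conventional CD4 cells held 230 CPM.

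Around these factors, the effector list had 3 genes higher in regulatory T cells, led by Klrg1 (3.09 ± 0.51, adjusted p = 0.000164) and Gzmb (2.57 ± 0.32, adjusted p = 6.34e-06), and 3 lower, among them Gzmk, with 1 UMI over all regulatory T cells, and the interferon gene Ifng (-3.23 ± 0.49, adjusted p = 6.18e-05), of 16 tested. Memory genes were divided 3 and 3 of 13, with the survival gene Bcl2 at -2.71 ± 0.29 (adjusted p = 6e-07). Partner factors were also divided 3 and 3 of 15, and the highest, Ikzf2, had been used in defining the class. No immediate early gene of 13 was higher and 3 were lower, including Btg2 (-1.51 ± 0.18, adjusted p = 3.17e-06).

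Gamma-delta over CD8 cells gave the most calls, with 4 of 10 members higher and 3 of 10 lower against 3.21% and 3.46% of all genes. These classes were not apart by clustering. When T and NK cells were clustered again, the clusters named gamma-delta held 151 cells of the gamma-delta class and 219 of the CD8 class. The part of this overlap in the differences was not tested. The memory factors Tcf7 (1.34 ± 0.31, adjusted p = 0.0075), Lef1 (0.88 ± 0.20, adjusted p = 0.0067) and Bach2 (0.83 ± 0.19, adjusted p = 0.00607) were higher together with Eomes (1.58 ± 0.28, adjusted p = 0.000487). Nr4a2 fell by 3.35 ± 0.46 (adjusted p = 2.87e-05), Nr4a1 by 2.36 ± 0.44 (adjusted p = 0.00102) and Prdm1 by 1.79 ± 0.50 (adjusted p = 0.0296), and every one of the 7 held its direction in 4 of 4 libraries. With 36 to 55 cells per library several calls depended on the library set. Tcf7 lost its call without WT IgG (1.16, adjusted p = 0.118), as did Lef1 (0.60, adjusted p = 0.176). Lef1 also lost it without A159V anti-PD1 (0.87, adjusted p = 0.0547), Bach2 without A159V IgG (0.64, adjusted p = 0.0675) or A159V anti-PD1 (0.85, adjusted p = 0.0506), and Prdm1 without WT IgG (-1.75, adjusted p = 0.0545), A159V IgG (-1.57, adjusted p = 0.0719) or A159V anti-PD1 (-1.74, adjusted p = 0.111). Eomes, Nr4a1 and Nr4a2 kept theirs. Klre1, an NK gene, was at 157 to 231 CPM in CD8 cells and 157 to 477 CPM in gamma-delta cells, and its part in the Eomes difference was not tested.

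The NR4A relative Nr4a3 was lower in gamma-delta cells too (-3.30 ± 0.46, adjusted p = 2.81e-05), and the innate-like T cell factor Zbtb16 was higher (6.57 ± 0.61, adjusted p = 8.75e-08, from 0, 5, 0 and 1 UMIs in CD8 cells), among 3 partner factors higher and 2 lower of 15. Of 16 effector and exhaustion genes 11 were lower. Gzmk had 0 UMIs in gamma-delta cells of all 4 libraries, which allows up to 12.8 to 30.9 CPM, against 44.6 to 131.5 CPM in CD8 cells, and its fitted fold is not given. Irf4, with 0 or 1 UMI in gamma-delta cells of each library, was lower too (-4.46 ± 0.57, adjusted p = 9.91e-06), and Gzma alone was higher (1.27 ± 0.38, adjusted p = 0.0444). Memory genes were higher in 4 and lower in none of 13, among them S1pr1 (1.61 ± 0.41, adjusted p = 0.0155), and 2 of 13 immediate early genes were lower, Fosb (-2.12 ± 0.40, adjusted p = 0.001) and Ier3 (-1.09 ± 0.32, adjusted p = 0.041).

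In NK over CD8 cells Eomes showed the clearest gain of the set, 2.37 ± 0.21 on the log2 scale (adjusted p = 3.97e-09), followed by Bach2 at 0.64 ± 0.17 (adjusted p = 0.00808). Nr4a2 fell by 2.15 ± 0.31 (adjusted p = 8.38e-06), Nr4a1 by 1.47 ± 0.25 (adjusted p = 6.09e-05) and Id3 by 1.87 ± 0.50 (adjusted p = 0.00832), each in 4 of 4 libraries. The counts were 2 of 10 higher and 3 of 10 lower, beside 8.45% and 9.93% of all genes. Without WT IgG the Id3 difference was -1.64 (adjusted p = 0.122). Id2 was at 0.68 ± 0.25 (adjusted p = 0.0541), higher in 3 of 4 libraries, and without WT anti-PD1, where CD8 cells held more Id2 than NK cells, it was 1.03 (adjusted p = 5.15e-06). Tcf7 was at -0.22 with all libraries and passed downward without WT anti-PD1 (-0.80, adjusted p = 0.00341). Lef1 (-0.07), Tbx21 (0.01) and Prdm1 (-0.39, adjusted p = 0.349) did not pass.

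Of the effector list, NK cells were higher in 4 genes, led by Gzma (4.65 ± 0.39, adjusted p = 1.36e-09) and Klrg1 (3.56 ± 0.46, adjusted p = 1.88e-06), and lower in 10 of 16, led by Irf4 (-5.41 ± 0.34, adjusted p = 6.42e-12, from 0 to 5 UMIs per library in NK cells) and Gzmk (-4.52 ± 0.46, adjusted p = 1.01e-07). Memory genes gave 4 higher and 6 lower of 13, with Xcl1 at 1.78 ± 0.35 (adjusted p = 0.000474) and Ccr7 at -3.79 ± 0.60 (adjusted p = 2.85e-05, from 1 to 4 UMIs per library in NK cells). Partner factors gave 4 higher and 2 lower of 15, with Zbtb16 at 4.14 ± 0.62 (adjusted p = 1.47e-05) and Ikzf2 at -1.75 ± 0.30 (adjusted p = 7.28e-05). Immediate early genes gave 1 higher, Jun (0.75 ± 0.23, adjusted p = 0.0207), and 3 lower of 13, with Fosb at -1.10 ± 0.21 (adjusted p = 0.000247).

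Over the 20 class and library profiles, the genes whose log2(CPM + 1) followed each member most closely were listed among 6147 genes that reached 50 CPM somewhere. The profiles share libraries and classes, so these correlations are descriptions with no test. Tcf7 and Bach2 shared Aff3 as their closest gene, with Pearson r = 0.92 for each. Nr4a1 was closest to Rel, an NF-kB subunit gene (r = 0.95), Samsn1 (0.93) and Mxi1 (0.93), and Eomes to the NK receptor gene Klra7 (r = 0.95). Prdm1 was closest to Ppp2ca (r = 0.95), Tbx21 to Mcoln2 (r = 0.89), and Lef1 to Txnip (r = 0.85). The weakest best matches were those of Id2 (Abr, r = 0.83), Id3 (Igfbp4, r = 0.83) and Nr4a2 (Ank3 and Cox17, r = 0.80 each).

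The 3 comparisons between libraries have 1 library per group, so they carry no replicate check and no test. A member was counted as changed in a class where it had at least 10 UMIs over both libraries, differed at least 2-fold, and its 95% interval, which covers counting error only, left out 0. Values are log2 ratios of CPM with 1 CPM added to each. WT IgG is the baseline of the first 2 comparisons and A159V IgG enters the first and the third, so these are not independent of each other.

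**Figure D3:**
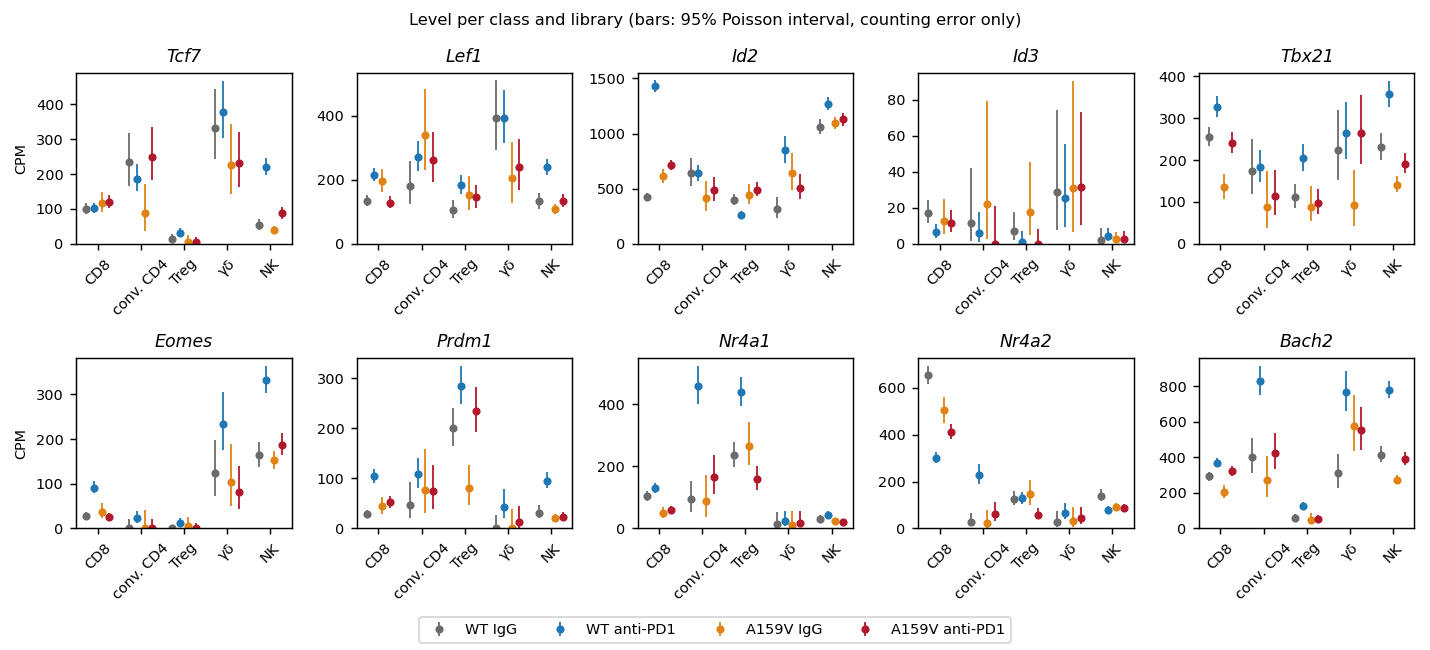
CPM of each factor in the 5 classes, by library, with 95% Poisson intervals that cover counting error only. Id2 in CD8 cells, Tcf7 in NK cells, Nr4a1 in conventional CD4 cells and Bach2 in conventional CD4 and NK cells are highest in WT anti-PD1.

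A159V IgG over WT IgG sets the tumor genotypes side by side under control IgG, and few factors passed the limits. With 1 library per group, genotype cannot be told apart from clone, tumor or preparation. Of 39 member and class pairs with enough UMIs, 0 were higher and 4 lower, where 3.49% and 2.04% of all gene and class pairs were. In CD8 cells Nr4a1 went from 103 to 48.7 CPM, a log2 ratio of -1.07 (-1.61 to -0.53). Prdm1 in regulatory T cells went from 200 to 80.0 CPM, at -1.31 (-2.02 to -0.60). In those regulatory T cells the 8 dendritic cell markers summed to 182 CPM, against 63.8 in WT IgG and 47.3 to 54.3 in the anti-PD1 libraries. Flt3 and Clec9a among them were at 0, and the part of these markers in the Prdm1 value was not tested. The other pairs rest on few molecules. Tcf7 in conventional CD4 cells had 8 UMIs against 40 (-1.40, -2.49 to -0.32), in a profile whose 7 neutrophil markers summed to 406 CPM against 11.7 in WT IgG and 17.1 to 24.4 in the anti-PD1 libraries. Retnlg among them was at 0, and their part in the Tcf7 value was not tested. Tbx21 in gamma-delta cells had 9 against 31 (-1.27, -2.33 to -0.21). Tbx21 was below WT IgG in all 5 classes, at -0.92 in CD8, -0.99 in conventional CD4, -0.33 in regulatory T, -1.27 in gamma-delta and -0.70 in NK cells, and the intervals of conventional CD4 and regulatory T cells held 0. Id2 in gamma-delta cells, at 0.999 (0.44 to 1.56), lay just under the fold limit. In the gamma-delta cells 4 of 9 immediate early genes were lower and none higher, with a list median of -1.45 against -0.05 over all 4221 genes, of which 123 were lower. The list went the other way in conventional CD4 cells (3 of 10 higher, none lower, beside 219 of all 4581 genes higher). It did so in regulatory T cells too (3 of 11 higher, none lower, beside 356 of 7733). In NK cells 2 of 13 were lower and none higher, beside 243 of 9793 genes lower, and in CD8 cells none of 13 passed. In CD8 cells 3 of 15 effector genes were lower, Gzma, Ifng and Batf, as were 143 of all 10055.

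WT anti-PD1 over WT IgG gave more calls than the other comparisons, with 13 pairs higher and 2 lower of 46, beside 9.72% and 7.21% of all pairs. WT anti-PD1 is the library that stood apart, and its median gene was 0.14 to 0.36 higher in the 5 classes, genes longer than 100 kb had medians of 0.30 to 0.72 and genes of at most 10 kb medians of -0.37 to -0.08. Bach2 (347.3 kb) and Lef1 (113.9 kb) are long genes, Tcf7 is 30.64 kb, and Id2 (3.342 kb) and Id3 (2.259 kb) are short. The part of length in the values below was not tested.

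In CD8 cells the effector factors Id2 (426 to 1431 CPM, log2 ratio 1.74, 1.63 to 1.86), Prdm1 (28.4 to 104 CPM, 1.83, 1.40 to 2.26) and Eomes (28.4 to 91.5 CPM, 1.65, 1.22 to 2.09) were higher. Nr4a2 (654 to 301 CPM, -1.12, -1.26 to -0.98) and Id3 (31 to 13 UMIs, -1.30, -2.13 to -0.47) were lower. Tcf7 was level at 0.01 (-0.28 to 0.29), and Lef1 was at 0.69 and Tbx21 at 0.35. Of 16 effector and exhaustion genes 4 were higher, Havcr2, Gzmk, Irf4 and Fasl, with none lower, where 997 of all 10960 genes were higher and 939 lower in this class.

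In conventional CD4 cells the NR4A genes led. Nr4a2 had 113 UMIs against 5 (2.94, 1.69 to 4.19) and Nr4a1 225 against 16 (2.28, 1.56 to 3.01), together with 8 of 13 immediate early genes higher and 1 lower (list median 1.03 against 0.16 over all genes, of which 496 of 7271 were higher and 464 lower). Prdm1, with 53 UMIs against 8 (1.19, 0.14 to 2.24), and Bach2 (1.04, 0.67 to 1.41) were also higher, but Prdm1 turned to -0.57 (-1.77 to 0.64) with a gate of 2 UMIs and was at 0.87, under the fold limit, with re-clustering. Bach2 was the only called member in regulatory T cells (1.03, 0.48 to 1.58), and in gamma-delta cells it was higher (1.29, 0.82 to 1.77) together with Id2 (1.41, 0.94 to 1.88). NK cells gained Tcf7, from 52.9 to 221 CPM (2.04, 1.60 to 2.49), Prdm1 (1.56, 0.98 to 2.14) and Eomes (1.01, 0.74 to 1.28), with Bach2 just under the fold limit at 0.91. In these NK cells 8 of 12 memory genes were higher and 1 lower, with a list median of 1.09 against 0.36 over all genes. Of all 10149 genes with enough UMIs in NK cells, 1583 were higher and 602 lower. Median-of-ratios scaling in place of library totals turned the split of all calls from 57.43% higher to 38.67% higher, and left 10 of the 13 higher pairs. Bach2 in conventional CD4 (0.95) and regulatory T cells (0.93) and Eomes in NK cells (0.68) dropped under the fold limit, and Nr4a2 in NK cells (-1.14) passed downward.

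**Figure D4:**
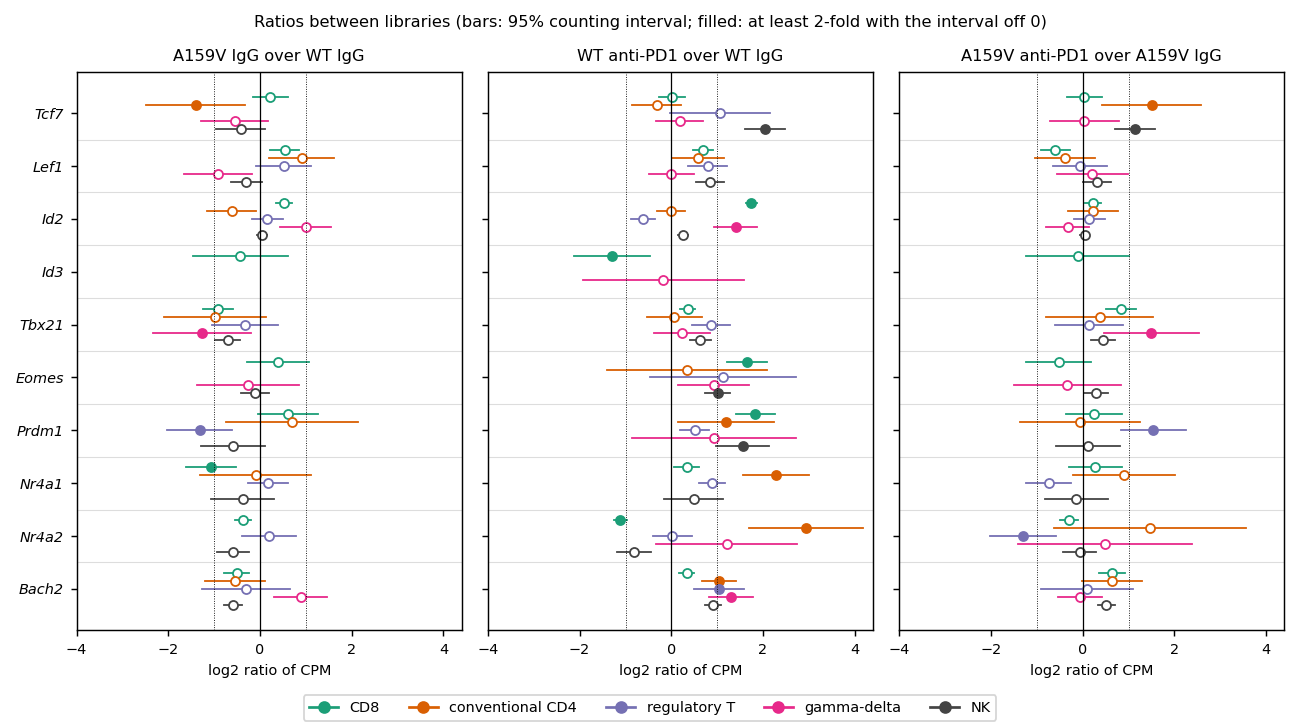
Log2 ratio of CPM with 95% counting intervals for each factor and class in the 3 library comparisons, filled where the fold is at least 2 and the interval leaves out 0. Pairs with fewer than 10 UMIs over both libraries are not drawn. Most filled points lie in WT anti-PD1 over WT IgG, 13 above 0 and 2 below.

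A159V anti-PD1 over A159V IgG gave 4 pairs higher and 1 lower of 41, beside 3.1% and 2.79% of all pairs, and none was in CD8 cells. Tcf7 was higher in NK cells, from 39.2 to 87.4 CPM (1.14, 0.70 to 1.57), and in conventional CD4 cells, from 8 to 44 UMIs (1.502, 0.43 to 2.58), the A159V IgG cells again being those with 406 CPM of neutrophil markers. Prdm1 in regulatory T cells went from 80.0 to 235 CPM (1.54, 0.83 to 2.25), and Nr4a2 in the same cells from 147 to 58.7 CPM (-1.31, -2.03 to -0.58). The A159V IgG regulatory T cells were again those with 182 CPM of dendritic cell markers, whose part in these ratios was not tested. The Nr4a2 ratio turned to 0.50 (-0.05 to 1.04) with predicted doublets kept, was under the fold limit with cells weighted equally (-0.94) and with clustering done separately per library (-0.95), and had under 10 UMIs with a gate of 2 UMIs. Tbx21 in gamma-delta cells went from 9 to 42 UMIs (1.498, 0.47 to 2.53). Each of the 4 higher pairs starts from an A159V IgG value that was the lowest of the 4 libraries for that gene and class. CD8 cells had Tbx21 at 0.84 (0.50 to 1.17), Bach2 at 0.64 (0.36 to 0.92), Lef1 at -0.59 (-0.92 to -0.27) and Tcf7 at 0.03 (-0.35 to 0.42), while 6 of 15 effector genes were higher, Gzma, Prf1, Ifng, Batf, Cx3cr1 and Lag3, as were 222 of all 9834 genes. Long genes had medians of 0.18 to 0.45 in this comparison and short genes -0.29 to -0.10.

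Levels summed over a class do not show how many cells hold a factor. UMIs were drawn down to 1500 in each cell. Cells below that depth dropped out, namely 15, 49, 30 and 45 CD8 cells, 9, 7, 31 and 23 conventional CD4, 18, 19, 30 and 30 regulatory T, 5, 1, 8 and 7 gamma-delta and 8, 40, 28 and 26 NK cells. The share of cells with at least 1 UMI was then taken. For Tcf7 the share was 42.5%, 36.2%, 28.6% and 25% of gamma-delta cells, 13.5%, 10.7%, 15.3% and 15.6% of CD8 cells, 23.3%, 19.3%, 0% (0 of 21 cells, which allows up to 14.3%) and 24.2% of conventional CD4 cells, and 11.8%, 22.2%, 6.57% and 15.1% of NK cells. Regulatory T cells had 0.714% to 1.72%. Without thinning the shares were 48.9%, 62.5%, 38.9% and 47.3% of gamma-delta cells, 23.8%, 16.3%, 24.0% and 23.7% of CD8 cells, 33.3%, 29.3%, 13.5% and 24.7% of conventional CD4 cells and 19.9%, 44.1%, 17.4% and 27.9% of NK cells. Macrophage-like cells thinned to the same depth, which should lack most of these lymphoid genes, gave a background at 0% to 0.148% for Tcf7, 0.0989% to 0.260% for Lef1, 0.123% to 0.325% for Tbx21 and 0.0656% to 0.164% for Eomes, but 7.93% to 10.3% for Bach2. For these 5 genes, 82 of 100 shares over the 5 classes and 4 libraries had an exact binomial interval wholly above that background (87 of 100 without thinning). Tcf7, Eomes and Bach2 in regulatory T cells were above it in 0 of 4 libraries and Eomes in conventional CD4 cells in 1 of 4. For Tcf7 and Eomes, cells with a UMI were not detectably more frequent than background at this depth in those pairs. Eomes in conventional CD4 cells of WT anti-PD1 was the exception. Macrophage-like cells held Bach2 themselves, so they are no empty background for it and cannot show whether regulatory T cells lack it. Summed levels of macrophage-like cells were 0.590 to 1.51 CPM for Tcf7, under the 4.44 to 29.9 CPM of regulatory T cells (1 to 24 UMIs), and 0.423 to 1.08 CPM for Eomes, while for Bach2 they were 60.3 to 86.3 CPM.

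Within CD8 cells the share with a UMI of each other factor was set beside the presence of Tcf7. Of 60 gene and library pairs, 11 were higher in cells with a Tcf7 UMI, 14 lower, and in 35 the exact binomial intervals overlapped. Only the members and a few chosen partner genes were split in this way. The share of all genes that would be apart was not counted, so these counts have no baseline. The cells with Tcf7 were few, 46, 51, 26 and 53, against 296, 427, 144 and 286 without. Lef1 and Bach2 were more frequent with Tcf7 in 4 of 4 libraries. Neither count held under other settings, since thinning to 1000 UMIs left Lef1 apart in 3 and Bach2 in 0 of 4 libraries, and classes from re-clustering left Lef1 in 0 and Bach2 in 2 of 4. In WT IgG 45.7% of cells with Tcf7 held Lef1 against 10.5% of those without, and 47.8% held Bach2 against 25%. In A159V anti-PD1 the shares were 35.8% against 11.5% for Lef1 and 60.4% against 25.2% for Bach2. Nr4a2 was less frequent with Tcf7 in 3 of 4 libraries (8.70% against 37.2% in WT IgG), and in 2 and 1 of 4 with thinning to 1000 UMIs and with re-clustering. The granzyme gene Gzmb was likewise less frequent in 3 of 4 (21.7% against 57.4%), and in 2 and 3 of 4 under these settings. Id2, Tbx21 and the inhibitory receptor genes Havcr2 and Pdcd1 were less frequent in 2 of 4 libraries. With thinning to 1000 UMIs and with re-clustering these became 1 and 0 for Id2, 0 and 1 for Tbx21, 1 and 2 for Havcr2, and 0 and 1 for Pdcd1. Eomes, Prdm1, Nr4a1 and Tox overlapped in 4 of 4 at 1500 UMIs.

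**Figure D5:**
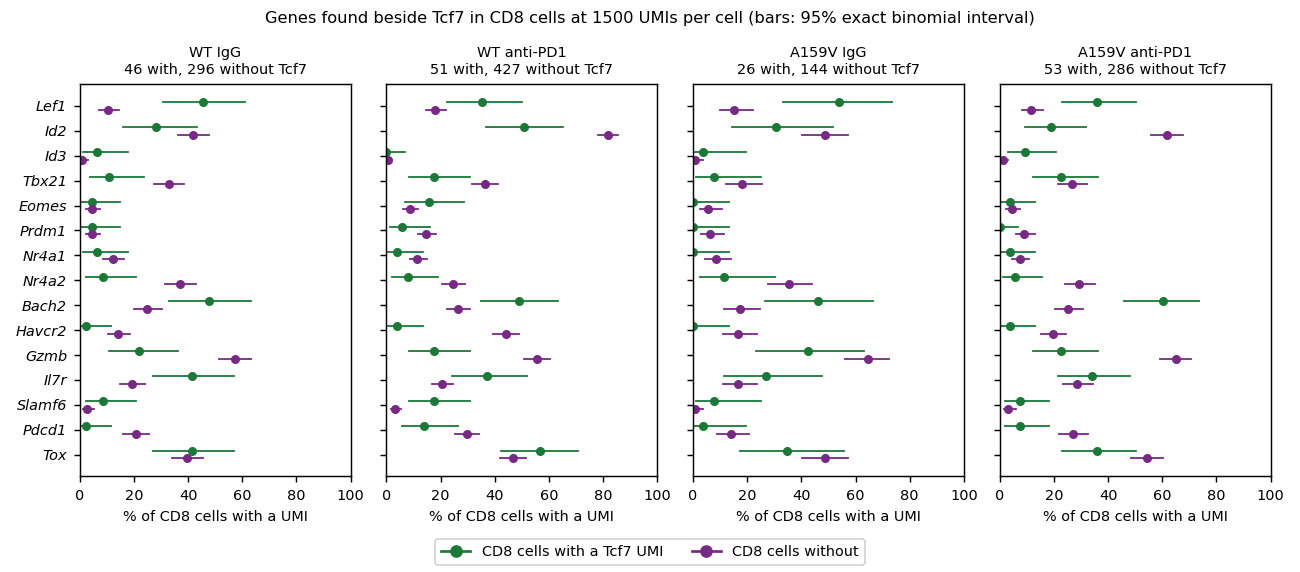
Share of CD8 cells with at least 1 UMI of each gene, in cells with and without a Tcf7 UMI, by library, after thinning to 1500 UMIs, with 95% exact binomial intervals. At this depth and with these classes Lef1 and Bach2 lie higher with Tcf7 in 4 of 4 libraries, and Nr4a2 and Gzmb lower in 3 of 4. At 1000 UMIs Bach2 is apart in 0 of 4, and with classes from re-clustering Lef1 is.

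Splitting the CD8 class by Havcr2, which encodes the inhibitory receptor TIM3, gave 97, 280, 44 and 114 cells with a UMI and 260, 247, 156 and 270 without. Because the split uses the UMIs of the same cells, its values are a description. Tcf7 was 6.19, 7.57, 0 and 8.02 CPM with Havcr2, where 0 UMIs in A159V IgG allow up to 17.1 CPM, and 154, 235, 163 and 204 CPM without. Lef1 was 41.8, 124, 17.1 and 41.7 CPM with Havcr2 and 186, 348, 262 and 193 without. Nr4a2 ran the other way, at 1243, 406, 1146 and 702 CPM with Havcr2 and 323, 152, 260 and 198 without, and in WT anti-PD1 it was below WT IgG on both sides of the split. Prdm1 was also higher with Havcr2 in 4 of 4 libraries, at 40.3, 136, 68.4 and 80.2 CPM against 21.8, 57.5, 34.7 and 32.0. Eomes did not keep a direction, with 4.64, 63.1, 39.9 and 16.0 CPM with Havcr2 and 41.8, 132, 36.9 and 33.2 without.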

How the data were processed

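Droplet 3′ single-cell libraries of 4 tumor groups were analyzed, 1 library each. The authors deposited raw UMI counts per gene and called cell as 10x matrices, written by Cell Ranger 7.2.0 per the file headers, while the submitters' processing notes name Cell Ranger 5.0.1 and build mm10. Introns were counted, per the study's methods. The doublet removal, ambient RNA correction and integration described there are not in these counts.

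The matrices held 7802, 7430, 8685 and 9311 cells with 93030164, 54402632, 113779013 and 125227747 UMIs (WT IgG, WT anti-PD1, A159V IgG, A159V anti-PD1). Cells with at most 500 genes (510, 590, 553 and 432) were removed, then predicted doublets (425, 374, 529 and 631, set at 0.8% per 1000 cells, from 2 simulated doublets per cell). All libraries were clustered together with scanpy 1.11.5 (2000 variable genes without the members and lists, 20 components, 20 neighbors, leidenalg 0.10.2, resolution 1). Within T and NK clusters, CD8 cells had a UMI of Cd8a or Cd8b1 and of Cd3 or Trac and none of Cd4, Foxp3 or Trdc. Regulatory T cells had Foxp3, or Cd4, Il2ra and Ikzf2 together, without CD8 genes. Conventional CD4 cells had Cd4 and Cd3 or Trac without Foxp3, CD8 genes or Trdc. Gamma-delta cells had Trdc and Cd3 without Trac, Cd4, Cd8b1 or Foxp3, and NK cells had Ncr1 or Klrb1c without T cell genes. With a gate of 2 UMIs for each required marker or group of markers, part of the cells no longer met their definition. These were 363 of 1468 CD8, 193 of 322 conventional CD4, 338 of 618 regulatory T, 76 of 184 gamma-delta and 255 of 1099 NK cells.

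UMIs were summed per class and library (at least 20 cells) and class contrasts fitted together with edgeR 4.0.16 (R 4.3.3, quasi-likelihood, TMM, filterByExpr, library as block, Benjamini-Hochberg). The block was the library itself, whose classes share a preparation. Library contrasts used CPM with 1 CPM added and 95% delta-method intervals, and a library with 0 UMIs was set to 3 counts. Poisson, binomial and delta-method intervals and floors cover counting error only. Limits given for 0 UMIs or 0 cells are floors of 3 counts, which lie below the upper ends of the 95% Poisson and binomial intervals. Both kinds of contrast were tested on simulated data. Alternatives were another class definition, gate, doublet and cell filters, clustering, DESeq2 1.42.0, other scalings, filters, pseudocounts, folds and thinning, and leaving out each library. Gene positions came from GENCODE M21 (32158 of 32285 genes, 99.61%, matched) and promoters from RefSeq (10 of 10 members). On the same strand Tcf7 overlaps Gm26551, Lef1 overlaps Gm42449 and Bach2 overlaps Bach2it1 and Gm24371, so their counts can be uncertain. All 10 members are described. The 3 most alike genes of each were found by correlation, and not all of them are named. In class contrasts up to 2 genes per partner list and direction are named, most of them the largest changes. In library contrasts all called effector genes of CD8 cells are named. The list counts are over memory and naive, effector and exhaustion, partner and lineage factor, and immediate early genes. A gene of the memory list is counted but not reported here by name. Members and lists were chosen with earlier results of these data known.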

Additional observations from a re-analysis of the deposited data

Results flagged for a closer look

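Of 41 member and class pairs with values in both comparisons of anti-PD1 with IgG, 2 moved in opposite directions in WT and A159V tumors with counting intervals that left out 0 on both sides. How many of all gene and class pairs did so was not counted, so these pairs cannot be called unusual. With 1 library per group the difference between the comparisons was not tested. Lef1 in CD8 cells had a log2 ratio of 0.69 (0.46 to 0.91) in WT tumors but -0.59 (-0.92 to -0.27) in A159V tumors, both under the 2-fold limit. Nr4a1 in regulatory T cells had 0.89 (0.61 to 1.18) under anti-PD1 in WT tumors but -0.74 (-1.24 to -0.25) where tumors were A159V, again under that limit. Lef1 is longer than 100 kb, and the median long gene of CD8 cells was at 0.46 in the WT comparison but 0.18 in the other. Of the WT anti-PD1 cells, 438 of 527 CD8 cells fell into a cluster drawn 95.58% from that library and 165 of 215 regulatory T cells into one drawn 90.27% from it. The part of gene length and of the library that stood apart in these values was not tested.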

How the results depend on the processing

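Of the counts of members called, 178 stayed within 1.5-fold of the main count and 42 moved. Of the single values 935 counted as the same, 39 as moved, 37 as weaker, 19 as stronger and 5 as reversed. In class contrasts the same meant the same side of the threshold. For library ratios and shares beside Tcf7 it meant a shift no larger than the arm of the interval. A value counted as the same could therefore lose its call, as Bach2 did under median-of-ratios scaling. A fold of 1.5 cannot change a ratio, so its 24 values were the same by design. Leaving out CD8 cells with a Havcr2 UMI touches CD8 values only, so its values in other classes were also the same by design. Clustering at resolution 2 gave the same cells and UMIs in every class and library as the main setting. Leaving out the library block lost 11 member calls and left 0 higher and 1 lower in conventional CD4 over CD8, 0 higher in regulatory over conventional CD4, 1 higher in gamma-delta over CD8 and 1 higher in NK over CD8, and it gained none. No other paired analysis was possible because each group has 1 library. Over all genes the fit without the block called 245 and 155, 164 and 178, 131 and 137, and 328 and 396 genes (higher and lower), against 526 and 419, 348 and 359, 258 and 278, and 678 and 797. Leaving out each library gave 1 to 2 members higher in conventional CD4 over CD8, 1 to 2 in regulatory over conventional CD4 and 2 to 4 in gamma-delta over CD8, and as few as 309 and 157, 125 and 147, and 400 and 514 genes in conventional CD4, gamma-delta and NK over CD8 and 170 lower genes in regulatory over conventional CD4, with fewer profiles in the fit. Nr4a2 in regulatory over conventional CD4 cells ranged from -0.32 without A159V IgG to 1.35 without WT anti-PD1.

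Classes from re-clustering gave 4 higher in conventional CD4 over CD8, 5 lower in gamma-delta over CD8 and 4 higher in NK over CD8, where Tcf7 turned to 0.97 and Lef1 to 0.66, and called 829 and 810 genes in conventional CD4 over CD8, 768 and 684 in regulatory over conventional CD4 and 1202 and 1468 in gamma-delta over CD8. With doublets kept, conventional CD4 over CD8 had 1 higher and gamma-delta over CD8 1 lower, and 285 and 204 genes were called in the first. With no filter on low counts, conventional CD4 over CD8 had 1 higher (545 and 665 genes), and gamma-delta over CD8 called 274 and 673 genes. Without TMM the share of calls that were higher in NK over CD8 went from 45.97% to 36.93%.

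For A159V IgG over WT IgG the 0 higher pairs became 1 with re-clustering, 2 with doublets kept, 1 without the T and NK cluster led by myeloid genes (chosen after seeing the data), 2 with cells weighted equally and 3 at a fold of 1.5. The 4 lower pairs became 2 with a gate of 2 UMIs, 2 with doublets kept, 1 with more than 1000 genes per cell and 10 at a fold of 1.5. For WT anti-PD1 over WT IgG a fold of 1.5 gave 21 higher and 4 lower, and the 2 lower pairs became 1 in CD8 cells without Havcr2, with 5 CPM added and with cells weighted equally. With the gate of 2 UMIs Prdm1 in conventional CD4 cells turned to -0.57. For A159V anti-PD1 over A159V IgG the 4 higher pairs became 2 with re-clustering and 2 with the gate of 2 UMIs. The 1 lower pair became 2 with re-clustering, 0 with the gate of 2 UMIs, 2 with doublets kept, where Nr4a2 in regulatory T cells turned to 0.50, 0 with each library clustered on its own, 0 with cells weighted equally and 3 at a fold of 1.5. Beside Tcf7, thinning to 1000 UMIs left 4 pairs higher and 7 lower, and re-clustering 4 and 8, with Lef1 higher in 3 and 0 of 4 libraries and Bach2 in 0 and 2. The cause was not tested for any of these. Small classes limit depth most, since conventional CD4 and gamma-delta cells of A159V IgG had 91139 and 97053 UMIs.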

Other observations

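Outside the lymphocytes, several of the factors belonged to other cells of the tumor. Bach2, a B cell factor, was at 460 to 915 CPM in B or plasma-like cells, 157 to 274 in dendritic-like cells and 60.3 to 86.3 in macrophage-like cells. Nr4a1 was at 322 to 1099 CPM in neutrophil-like and 351 to 481 in macrophage-like cells, above the 10.3 to 43.3 CPM of gamma-delta and NK cells. Nr4a2 was at 149 to 625 CPM in dendritic-like cells, a range that holds 3 of the 4 CD8 values. Id3, at most 31.4 CPM in the lymphocyte classes, was at 507 CPM in endothelial-like and 263 in pericyte-like cells, each found in WT anti-PD1 alone, 60.3 to 221 in stromal-like, 80.8 to 111 in macrophage-like and 45.4 to 48.5 in tumor-like cells. Id2 was at 348 to 724 CPM in macrophage-like cells. By contrast Tcf7, Lef1, Tbx21 and Eomes stayed between 0.42 and 2.16 CPM in macrophage-like cells, and tumor-like cells held 7.86 to 20.5 CPM of Lef1 and 3.93 to 10.0 of Tcf7.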
